A study of Mus musculus with 35 samples.

Results

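The 9 genes described here encode parts of the basement membrane under stratified epithelium and of the hemidesmosome that fastens basal cells to it: the laminin chain genes Lama3, Lama5, Lamb1 and Lamb3, the collagen genes Col4a1, Col4a2, Col7a1 and Col17a1, and Dst. They were taken by name from the authors' tables of every library, as 9 of 53715 gene names in the back skin tables and 9 of 49585 in the tables of the other tissues. The study measured RNA of sorted epithelial cells of C57BL/6J mice aged 2 months in 35 libraries of 13 groups. The genotype of all mice was K5-tTA/pTRE H2B-GFP, in which a transactivator driven by the keratin 5 promoter makes a histone-GFP label in cells with an active promoter until doxycycline, mixed into the chow, stops it. Cells that divide then dilute the label. Slow-cycling, label-retaining cells (LRC) and fast-cycling cells that do not retain it (nLRC) came from basal layers of back and tail skin (3 libraries each), palate and tongue (2 each), and from the back spinous layer (3 each). The granular layer of back skin, the bulge of back hair follicles and the bulge of tail hair follicles gave 3 libraries each and were not split by label. Doxycycline was given for 2 weeks to the mice used for skin and for 10 days to those used for oral tissues. The labels do not tie libraries to animals, so p-values here reflect the spread among these libraries only, and that spread may be technical.

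Laminins are trimers of an alpha, a beta and a gamma chain that assemble into a sheet at the base of an epithelium, and the chains of collagen IV form a second network that gives the sheet its strength. In epidermis the laminin that holds the Lama3 and Lamb3 chains binds the integrin of Itga6 and Itgb4 at the hemidesmosome, while Col7a1 forms anchoring fibrils that run from the basement membrane into the dermis. Col17a1, a collagen that spans the plasma membrane, and the plakin products of Dst and Plec complete the hemidesmosome and join it to keratin filaments inside the cell. Loss of several of these genes causes blistering of skin, and Col17a1 is known for its part in keeping stem cells of the epidermis and of the hair follicle.

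In mm10, the build named in the submitters' processing notes, Lama3 (ENSMUSG00000024421.16) lies on chromosome 18 from 12333819 to 12583013 on the plus strand, and Lama5 (ENSMUSG00000015647.9) on chromosome 2 from 180176373 to 180225859 on the minus strand. Lamb1 (ENSMUSG00000002900.16) lies on chromosome 12 from 31265234 to 31329644 and Lamb3 (ENSMUSG00000026639.18) on chromosome 1 from 193207699 to 193343878, both on the plus strand. Col7a1 (ENSMUSG00000025650.13) lies on chromosome 9 from 108953586 to 108984875 on the plus strand, and Col17a1 (ENSMUSG00000025064.15) on chromosome 19 from 47646344 to 47692094 on the minus strand. Dst (ENSMUSG00000026131.18), with 400437 bases the longest of them, lies on chromosome 1 from 33908225 to 34308661 on the plus strand. Col4a1 (ENSMUSG00000031502.11, 11198423 to 11312826, minus strand) and Col4a2 (ENSMUSG00000031503.13, 11312805 to 11449287, plus strand) share 22 bases on chromosome 8. Reads that fall there could not be assigned to either gene without strand, and the use of strand in counting is not given in the sources used here.

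Col4a1 and Col4a2, whose values moved together most closely, stand head to head on mouse chromosome 8 (GRCm38.p6, the assembly of mm10). RefSeq windows from 250 bases before to 50 bases after each gene's start overlap in 78 bases, and the starts lie 22 bases apart, counting both. The windows of the pair are shown first, each read 5′ to 3′ along its own gene, with the shared bases in capitals, which are reverse complements of each other. The Col17a1 window, of the member with the highest mean TPM in all 13 groups, follows with its motif matches in capitals: TATAAA, and CCAAT read on the other strand.

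Col4a1, chr8:11312777-11313076, minus strand: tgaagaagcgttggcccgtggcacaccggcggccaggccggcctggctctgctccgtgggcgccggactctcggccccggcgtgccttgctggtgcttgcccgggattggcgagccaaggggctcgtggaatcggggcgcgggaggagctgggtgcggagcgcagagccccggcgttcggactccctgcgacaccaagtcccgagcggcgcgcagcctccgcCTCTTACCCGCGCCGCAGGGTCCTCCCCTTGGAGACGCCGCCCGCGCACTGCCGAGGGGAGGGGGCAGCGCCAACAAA

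Col4a2, chr8:11312555-11312854, plus strand: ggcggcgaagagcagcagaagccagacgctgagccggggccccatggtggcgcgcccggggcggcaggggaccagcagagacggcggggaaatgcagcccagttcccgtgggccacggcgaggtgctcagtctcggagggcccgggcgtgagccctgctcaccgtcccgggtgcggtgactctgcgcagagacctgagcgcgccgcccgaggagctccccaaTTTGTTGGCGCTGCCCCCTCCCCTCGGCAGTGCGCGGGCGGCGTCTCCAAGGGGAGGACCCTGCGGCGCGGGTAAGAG

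Col17a1, chr19:47691993-47692292, minus strand: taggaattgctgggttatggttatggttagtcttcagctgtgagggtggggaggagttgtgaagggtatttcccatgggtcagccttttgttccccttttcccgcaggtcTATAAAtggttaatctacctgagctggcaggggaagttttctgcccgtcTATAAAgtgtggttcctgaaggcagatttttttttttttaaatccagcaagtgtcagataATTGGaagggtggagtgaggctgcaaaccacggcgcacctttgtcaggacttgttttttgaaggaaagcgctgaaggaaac

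The Col4a1 and Col4a2 windows had a GC content of 74.0% and 73.7%, against a median of 52.7% over all 32851 RefSeq windows. Windows were found for 8 of the 9 genes, with 2 each for Lamb3 and Dst; the entry missing is that of Lama3. On both strands, the letters GGGCGG were found in the windows of Lama5, Lamb1, Col4a1, Col4a2, Col7a1 and in 1 of the windows of Dst, and in 35.7% of all windows. CCAAT was found for Lamb1, Col4a1, Col4a2, Col7a1, Col17a1 and the other Dst window, and in 37.4% of all windows. TATAAA occurred only in the Col17a1 window among the members, 2 times, 140 and 91 bases before the start, and in 13.6% of all windows. TGANTCA, which stood in 7.81% of all windows, matched none of the members' windows, and neither Lamb3 window held any of the 4 motifs. These are matches of letters in 300 bases and say nothing of binding.

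Reads assigned to genes numbered 9785944 to 20560481 per back skin library. Tail libraries had 8421582 to 14093720, palate libraries 11680595 to 15641556, and those of tongue 11847897 to 13034075. Levels are given as TPM, a level scaled for gene length and library depth, from the authors' tables. The back skin tables list other genes than the tables of tail, palate and tongue, so levels of back skin and of the other tissues stand side by side below without a test. Differences are log2 fold changes ± SE of the deposited read counts from edgeR's quasi-likelihood test, adjusted by Benjamini-Hochberg over all genes tested, and a gene rose or fell where the adjusted p was under 0.05. Krt5 or Krt14, keratins of basal cells, led the 5 basal markers in every group. Krt10, a spinous keratin, stood at 18000 to 29300 TPM in spinous LRC but at 3140 to 7020 in spinous nLRC libraries, close to the 3280 to 5590 of the back basal groups, so that marker does not set the spinous nLRC sort apart from basal cells. Cd34, a bulge marker, was at 48.6 to 693 TPM in bulge and at most 0.81 in all other libraries. The summed TPM of all 6 bulge markers, led by Krt15, was 3790 to 20700 in back bulge libraries. It was 7700 to 12200 in back basal LRC and 6040 to 12900 in back basal nLRC, so the sum does not set back bulge apart. In tail the sum was 3850 to 7250 in bulge, 1860 to 3180 in basal LRC and 356 to 609 in basal nLRC. Back bulge library 2 stood apart, with 24.4% of reads on the feature Gm26917 against 2.61 to 10.1% in the other back libraries, and tail bulge library 3 with 26.8% on Rn18s-rs5 against 6.40 to 13.3% in the others of its tables. Palate nLRC library 2 had a scaling factor of 0.666 in the oral fit, against 0.996 to 1.161 in the other oral libraries. With 17895 it had the fewest genes with a read outside back skin.

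Across the back skin groups the members fell into different ranges. Col17a1 had mean levels of 889 TPM (granular) to 4556 TPM (basal LRC), Lamb3 of 52.6 to 659, Dst of 199 to 532, Lama3 of 69.6 to 198, Lama5 of 13.9 to 184 and Col7a1 of 11.9 to 130 TPM. Col4a1 (7.06 to 106), Col4a2 (5.0 to 123) and Lamb1 (2.58 to 38.4) were lower. Lama3, Lamb3, Col7a1, Col17a1 and Dst shared one order of their means at both ends, highest in basal LRC, then basal nLRC, then bulge, and lowest in the granular layer. Lama5, Lamb1, Col4a1 and Col4a2 were highest in the bulge instead. Not all neighbours in that order were apart. Basal LRC and nLRC libraries overlapped for Lamb3, Col7a1, Col17a1 and Dst. Back bulge libraries overlapped with basal nLRC libraries for Lama3, Lamb3 and Dst, and with spinous LRC libraries for Lama3, Lamb3, Col7a1, Col17a1 and Dst. Bulge library 2, which stood apart, had 19.4 TPM of Lama3, 121 of Lamb3 and 31.8 of Dst. Libraries 1 and 3 had 146 and 218, 541 and 692, and 424 and 937 TPM. The place of the bulge in the order of these genes depends on library 2.

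**Figure D1:**
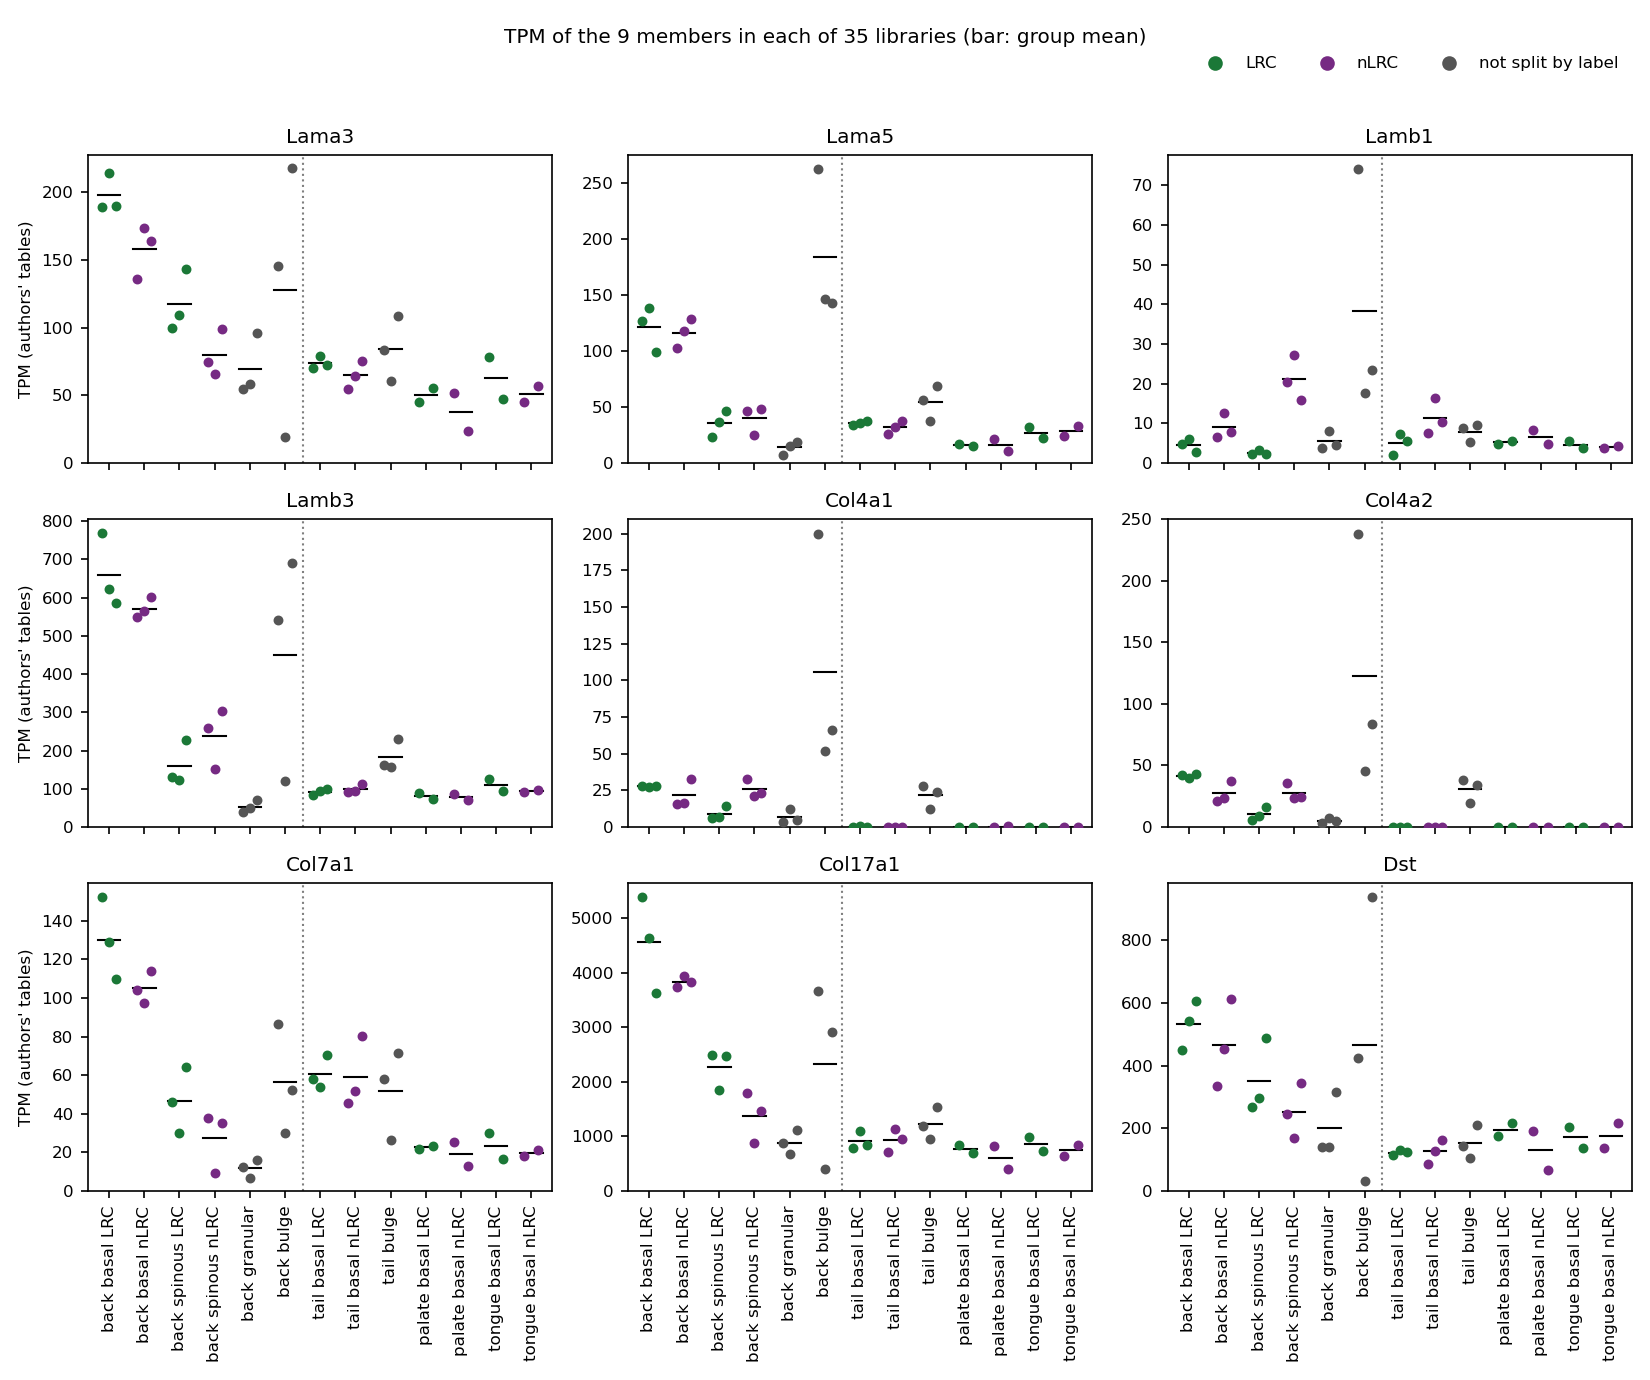
TPM (vertical axis, linear, from 0) of each of the 9 genes in each of the 35 libraries by group (horizontal axis); points are libraries, bars group means, and the dotted line parts the back skin tables from the others. By group mean, Lama3, Lamb3, Col7a1, Col17a1 and Dst are highest in the basal layer groups of back skin and, among back groups, lowest in the granular layer. The means of Lamb1, Col4a1 and Col4a2 are highest in back bulge.

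From the basal to the spinous layer of back skin, with LRC and nLRC averaged, genes of all the structures fell: the laminin chains Lama3, Lama5 and Lamb3, Col4a2 of collagen IV, Col7a1 of the anchoring fibrils and Col17a1 of the hemidesmosome. These are 6 of the 9 members, against 4.18% of the 16574 genes tested that were lower, and no member rose, against 4.90% that were higher. All 6 spinous libraries were below all 6 basal ones in CPM (counts scaled for library depth) for 5 members, against 2.80% of genes. The members' median was −0.99 on the log2 scale, that of all genes 0.01. Lamb1, Col4a1 and Dst did not pass the test. The falls lay between 1.78-fold for Lama3 and 3.21-fold for Col7a1.

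Of the laminin chains, Lamb3 had 549, 593 and 769 TPM as lowest, median and highest value in the 6 basal libraries and 123, 189 and 303 TPM in the 6 spinous ones. No spinous library reached a basal one, and the log2 fold change was −1.61 ± 0.23 (adjusted p = 3.6e-04). Lama5, whose chain stands in the laminin most widespread in adult basement membranes, went from 99.4, 122 and 138 TPM to 23.6, 41.4 and 48.1 TPM, again with no overlap (−1.65 ± 0.31, adjusted p = 0.00239). Lama3 fell less, from 136, 181 and 214 TPM to 65.6, 99.3 and 144 TPM (−0.83 ± 0.23, adjusted p = 0.0303); its TPM overlapped, though its CPM did not. The ratio of Lama5 to Lama3 in TPM, taken within each library, was 0.523 to 0.783 in basal and 0.237 to 0.619 in spinous libraries. Lamb1, the beta chain of laminins found in most tissues, stood at 2.73, 6.33 and 12.6 TPM in basal and 2.18, 9.60 and 27.1 TPM in spinous libraries (0.19 ± 0.28, adjusted p = 0.832). Here too the mean levels differed by label, from 4.51 TPM in basal to 2.58 in spinous LRC and from 9.02 in basal to 21.2 in spinous nLRC, and the test of that difference did not pass (adjusted p = 0.113). The summed TPM of 8 sebocyte markers was 172 to 626 in basal libraries, 290 to 421 in spinous LRC and 3070 to 7350 in spinous nLRC; its part in the Lamb1 values was not tested.

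Of the collagens, Col7a1 had 97.6, 112 and 152 TPM in basal and 9.18, 36.6 and 64.0 TPM in spinous libraries, without overlap (−1.68 ± 0.29, adjusted p = 0.00141). Col17a1 had 3635, 3892 and 5395 TPM in basal and 877, 1830 and 2496 TPM in spinous libraries, also without overlap (−1.22 ± 0.22, adjusted p = 0.00191). Col4a2 overlapped between the layers, at 21.4, 38.8 and 43.2 against 6.05, 19.8 and 35.8 TPM (−0.99 ± 0.26, adjusted p = 0.0214). The layers differed by label: mean Col4a2 levels were 41.8 TPM in basal LRC and 10.5 in spinous LRC, but 27.7 in basal nLRC and 27.9 in spinous nLRC. The test of that difference between LRC and nLRC did not pass (adjusted p = 0.113). Its partner chain Col4a1 had a change in the same direction that did not pass the test (−0.66 ± 0.33, adjusted p = 0.275). Dst was at 335, 497 and 613 TPM in basal and 168, 282 and 488 TPM in spinous libraries (−0.73 ± 0.41, adjusted p = 0.372). The call of Lama3 was lost when any 1 of 10 libraries was left out (adjusted p up to 0.0952), and that of Col4a2 without basal LRC 3, basal nLRC 3, spinous LRC 1, spinous LRC 2 or spinous nLRC 2 (adjusted p up to 0.0625).

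Partners of the members fell in the same step, in which 4.18% of genes tested were lower and 4.90% higher. Of 8 hemidesmosome partners and laminin receptors 6 fell and none rose, among them Itga3 (−1.94 ± 0.23), Itgb4 (−1.29 ± 0.17) and Itgb1 (−1.04 ± 0.18), all integrin chains, with a list median of −0.97. Of 7 other laminin chains 3 fell, with Lamb2 at −0.78 ± 0.13. Lama4, an alpha chain of vessels and other mesenchymal tissue, rose (2.11 ± 0.41). Of 6 other basement membrane collagens 3 fell (Col18a1 by 2.02, Col4a6 by 0.97 and Col4a5 by 0.71 on the log2 scale). Of 14 linkers and proteoglycans 4 fell and 2 rose, with Agrn (−1.40 ± 0.20), Sparc (−2.53 ± 0.40) and Frem2 (−0.83 ± 0.18) named by smallest p. Of 16 processing enzymes 6 fell, with the lysyl hydroxylase gene Plod1 at −2.03 ± 0.25, the collagen chaperone gene Serpinh1 at −1.55 ± 0.19 and the membrane protease gene Mmp14 at −0.86 ± 0.13. Of 7 transcription factors of basal keratinocytes only Smad3 fell (−0.80 ± 0.21).

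From the spinous to the granular layer 4 members fell further, Lama5, Lamb3, Col4a2 and Col7a1, against 1.54% of genes tested that were lower, and none rose (members' median −1.17, all genes −0.01). This comparison shares the spinous libraries with the one before it. The summed TPM of 6 granular markers was 447, 930 and 165 in granular libraries 1 to 3. It was 192, 187 and 54.8 in spinous LRC and 104, 65.1 and 60.5 in spinous nLRC, so granular library 3 overlapped with spinous LRC. Krt10 had a mean of 21500 TPM in granular and 25500 TPM in spinous LRC libraries. For Lama5 and Lamb3 all granular libraries were below all spinous ones in CPM, against 3.51% of genes. Lamb3 had 38.5, 49.5 and 69.9 TPM in the 3 granular libraries, all below the lowest spinous library (−1.90 ± 0.31, adjusted p = 0.00235). Lama5 had 7.02, 15.6 and 19.1 TPM, also below every spinous library (−1.52 ± 0.40, adjusted p = 0.042). Col7a1 at 12.7, 6.80 and 16.2 TPM (−1.52 ± 0.38, adjusted p = 0.031) and Col4a2 at 3.29, 7.10 and 4.61 TPM (−1.75 ± 0.35, adjusted p = 0.0082) overlapped with the lowest spinous libraries. Col17a1, still at 878, 676 and 1114 TPM in granular libraries, did not pass the test (−0.97 ± 0.28, adjusted p = 0.0631). It passed with the replicate number as a block (adjusted p = 0.0173), and when back bulge 1, back bulge 2 or spinous nLRC 2 was left out of the fit (adjusted p = 0.00937 to 0.0472). Each call but that of Lamb3 was lost when some single libraries were left out: Col4a2 without granular 1 or granular 3 (adjusted p up to 0.0639), Col7a1 without 7 libraries, each granular one among them (up to 0.173), and Lama5 without any 1 of 13 libraries, each granular one among them (up to 0.217). Itga3 (−1.96 ± 0.30), Itgb4 (−1.26 ± 0.21) and Itgb1 (−1.28 ± 0.24) fell again, in a list of which 5 of 8 fell.

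**Figure D2:**
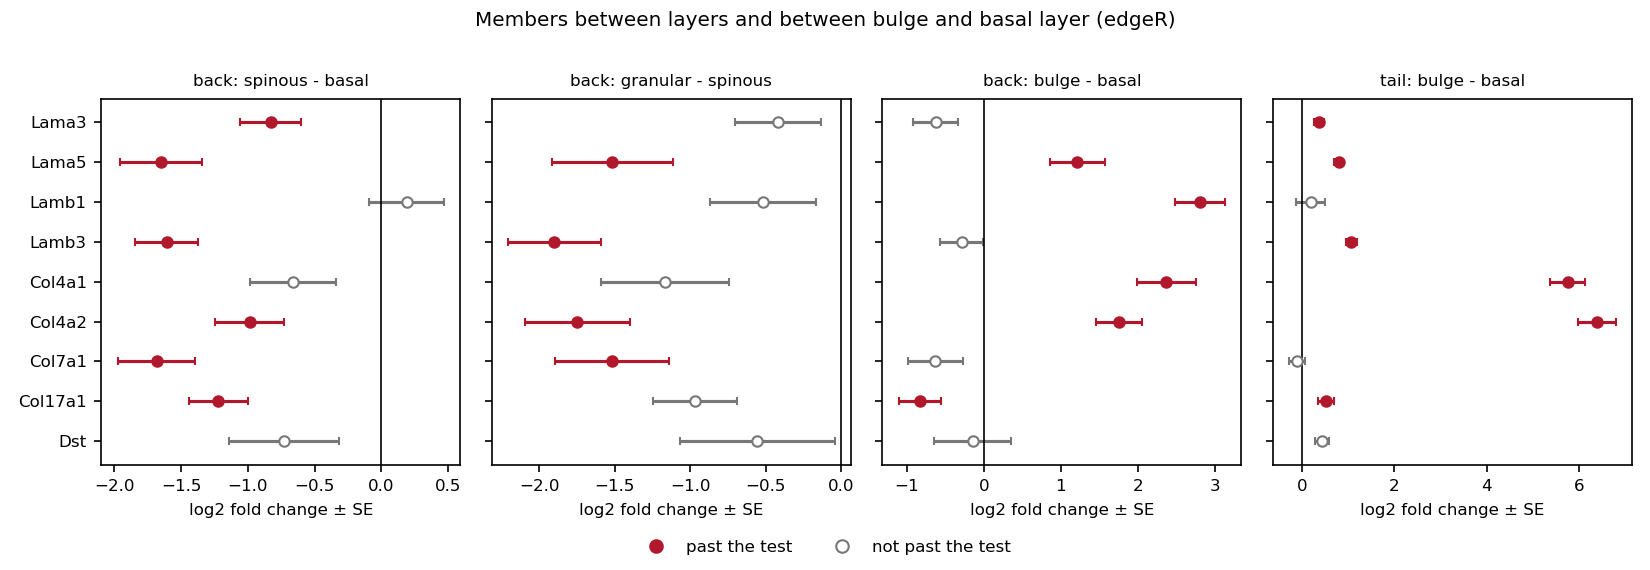
Log2 fold change (horizontal axis) with its SE of each gene (vertical axis) from edgeR, for spinous minus basal, granular minus spinous, and bulge minus basal in back and in tail; filled red points are past the test. The points for the layers lie mostly left of 0, while Col4a1 and Col4a2 lie right of 0 in both bulge panels, furthest in tail at 5.76 and 6.39.

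In the bulge, the niche of hair follicle stem cells, the collagen IV genes stood higher than in the basal layer in both skins. Against back basal cells, with LRC and nLRC averaged, Lama5, Lamb1, Col4a1 and Col4a2 rose and Col17a1 fell, 4 and 1 of the 9 members, against 15.7% of genes tested that were higher and 10.6% that were lower. The members' median was −0.15 and that of all genes 0.06. Libraries did not overlap in CPM for 4 members, against 21.4% of genes. Against tail basal cells Lama3, Lama5, Lamb3, Col4a1, Col4a2 and Col17a1 rose, 6 of 9, against 14.2% of 14993 genes tested that were higher, and none fell, against 10.4% that were lower (members' median 0.52, all genes −0.01). Libraries did not overlap in CPM for these 6, against 23.4% of genes. The calls of Lama3 and Col17a1 in tail were lost with median-of-ratios scaling (adjusted p = 0.0507 and 0.0534), without the low-count filter (0.252 and 0.118) and with limma on log2(TPM + 1) (0.356 and 0.15), which leaves 4 members in each.

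Col4a1 had 200, 51.7 and 65.9 TPM in the 3 back bulge libraries and 15.4, 27.6 and 32.6 TPM as lowest, median and highest value in the 6 back basal libraries. All bulge libraries were above all basal ones (5.17-fold, 2.37 ± 0.38, adjusted p = 1.8e-04). Col4a2 was at 238, 45.8 and 83.8 TPM against 21.4, 38.8 and 43.2 TPM (3.36-fold, 1.75 ± 0.30, adjusted p = 3.3e-04). Without library 2, which stood apart, the rises were 2.06 ± 0.40 and 1.68 ± 0.33 (adjusted p = 0.00114 and 0.0011).

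In tail the same genes came from near 0. Col4a1 had 28.3, 12.0 and 24.2 TPM in tail bulge, from 423 to 1324 reads, and 0.12, 0.27 and 0.47 TPM in tail basal libraries, from 7 to 54 reads. Col4a2 had 38.5, 19.4 and 34.4 TPM in tail bulge and 0 to 0.38 TPM in tail basal libraries, from 5 to 82 reads. The fitted rises in tail were 54.1-fold (5.76 ± 0.37, adjusted p = 3.2e-06) and 84.0-fold (6.39 ± 0.41, adjusted p = 3.2e-06). The difference between the bulge effects, tail minus back, was itself past the test for Col4a1 (3.37 ± 0.61, adjusted p = 8.6e-04) and Col4a2 (4.62 ± 0.56, adjusted p = 1.2e-05), 2 of the 4 members with a higher effect in tail, against 3.88% of genes; 1 member had a lower effect, against 5.77%. Without tail bulge library 3 the rises in tail were 5.86 ± 0.41 and 6.45 ± 0.45, and without back bulge library 2 the differences were 3.62 ± 0.67 and 4.64 ± 0.62, all past the test.

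Endothelial cells and fibroblasts also make collagen IV, and the summed markers of each were higher in bulge than in back and tail basal libraries. The summed TPM of 8 endothelial markers was 894, 20.9 and 258 in back bulge libraries 1 to 3 and 81.3, 19.0 and 107 in tail bulge, led by Plvap, against at most 4.75 in the other back groups and 0.86 in tail basal cells. None of the 8 was at 0 reads over the bulge groups, and Kdr and Tie1 were at 0 in back basal LRC, spinous LRC and spinous nLRC, and in granular libraries. Both collagen genes were highest in library 1 of back bulge, which had the highest endothelial sum, and in library 1 of tail bulge, where library 3 had the highest sum. The 8 fibroblast markers, led by Col6a1, summed to 92.6, 40.8 and 155 TPM in back bulge libraries 1 to 3, with Lum at 0 reads. In tail bulge libraries 1 to 3 they summed to 78.9, 93.5 and 127 TPM. These sums were at most 22.9 in the other back groups and 10.9 in tail basal cells. Library 3 had the highest fibroblast sum in each bulge group, while both collagen genes were highest in library 1. Palate and tongue basal libraries had fibroblast sums of 30.4 to 153 TPM, with both collagen IV genes under 1 TPM. Dcn made up most of these sums, at mean levels of 40.8 and 72.4 TPM in palate LRC and nLRC and 51.6 and 137 TPM in tongue LRC and nLRC. Lum was at 0 reads in each of these groups, Col3a1 in all but palate LRC, and Pdgfra in palate nLRC and tongue LRC. Melanocyte markers summed to 173, 12.7 and 448 TPM in back bulge, led by Dct, and to at most 42.5 in the other back groups. The part of these cells in the values of the bulge was not tested. In bulk samples, fewer cells of a type and less RNA per cell cannot be told apart.

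Lamb1 rose 7.0-fold in back bulge, to 74.0, 17.6 and 23.5 TPM from 2.73, 6.33 and 12.6 TPM, with no overlap (2.81 ± 0.32, adjusted p = 7.8e-06; 2.60 ± 0.35 and 4.1e-05 without library 2). In tail bulge, at 8.85, 5.22 and 9.53 TPM, it lay within the range of tail basal libraries (0.19 ± 0.32, adjusted p = 0.726). The difference between these effects passed the test (−2.64 ± 0.50, adjusted p = 0.00128). Lamb3 took the other course, at 541, 121 and 692 TPM in back bulge (−0.29 ± 0.28, adjusted p = 0.482) and at 163, 158 and 230 TPM in tail bulge, above all 6 tail basal libraries at 83.3, 94.9 and 112 TPM (1.07 ± 0.12, adjusted p = 1.4e-04). The difference between its effects was 1.32 ± 0.34 (adjusted p = 0.0141), lost without tail bulge 2 (adjusted p = 0.0506).

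Lama5 had 262, 146 and 143 TPM in back bulge, above every back basal library in TPM though not in CPM (1.21 ± 0.36, adjusted p = 0.0182), and 56.7, 37.1 and 69.0 TPM in tail bulge, of which library 2 lay just below the highest tail basal library of 37.5 TPM (0.79 ± 0.10, adjusted p = 2.6e-04). Without back bulge library 2 the rise in back was 0.42 ± 0.30 (adjusted p = 0.354). Lama3, with 146, 19.4 and 218 TPM in back bulge and 83.6, 60.7 and 109 TPM in tail bulge, passed the test only in tail (0.36 ± 0.12, adjusted p = 0.0444; back −0.63 ± 0.29, adjusted p = 0.12). The difference between its effects, tail minus back, was 0.95 ± 0.34 (adjusted p = 0.0819), which did not pass the test. In tail the Lama3 call was lost in 8 of the fits that left out a library, tail bulge 1 and 3 among them (adjusted p up to 0.139). Back bulge library 2 was low for Lama3 but not for Lama5, so that the ratio of Lama5 to Lama3 in TPM was 7.56 there and 1.80 and 0.659 in the other bulge libraries.

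Col17a1 had 3659, 411 and 2908 TPM in back bulge and fell against the basal layer (−0.83 ± 0.28, adjusted p = 0.0355), but not without library 2 (−0.63 ± 0.24, adjusted p = 0.0685), nor without basal LRC 1, basal LRC 2, basal nLRC 2 or basal nLRC 3 (adjusted p = 0.0574 to 0.0685 over these 5 fits). In tail bulge it had 1199, 945 and 1542 TPM against 711, 896 and 1135 TPM in basal libraries (0.52 ± 0.17, adjusted p = 0.0482); this call was lost in 8 fits that left out a library, each of the bulge ones among them (adjusted p up to 0.126). The difference of these effects was 1.31 ± 0.34 (adjusted p = 0.0147) and 1.07 ± 0.29 without back bulge library 2 (adjusted p = 0.0234). Dst did not pass the test in either skin, with 424, 31.8 and 937 TPM in back bulge and 143, 106 and 210 TPM in tail bulge (0.43 ± 0.14, adjusted p = 0.0525 in tail; 0.033 with the replicate number as a block). Col7a1 did not pass it either, at 86.6, 30.1 and 52.5 TPM in back bulge (−0.63 ± 0.36, adjusted p = 0.211) and 57.9, 26.2 and 71.4 TPM in tail bulge (−0.12 ± 0.17, adjusted p = 0.677).

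Lists of other basement membrane genes were also counted in the bulge. Of all genes tested, 15.7% were higher and 10.6% lower in back bulge, and 14.2% and 10.4% in tail bulge. Of 14 linkers and proteoglycans 11 rose in back bulge (median 3.47), with Fbln1 (4.26 ± 0.32), the collagen IV cross-linking peroxidase gene Pxdn (5.44 ± 0.56) and Fras1 (4.88 ± 0.55), and 8 of 13 tested rose in tail bulge, where Pxdn also rose (3.72 ± 0.37) but Fras1 (−4.20 ± 0.31) and Frem2 (−2.11 ± 0.14) fell. The bulge effects of Fras1 differed by −9.10 ± 0.77, tail minus back. Of 6 other collagens 4 rose and 2 fell in back, and 3 rose in tail, where Col4a3 (4.34 ± 0.42) and Col4a4 (3.39 ± 0.26), chains of a collagen IV other than that of Col4a1 and Col4a2, had the smallest p. Hemidesmosome partners in back stood near the shares of all genes, with 1 of 8 higher, Cd151 (0.87 ± 0.21), and 1 lower, Itga6 (−1.07 ± 0.22). In tail 5 of 8 rose. Of the other laminin chains, Lama1 fell (−4.98 ± 0.53) and Lama4 rose (3.04 ± 0.45) in back bulge, and Lamb2 (0.47 ± 0.13) and Lamc1 (0.29 ± 0.09) rose in tail bulge. Of 16 processing genes 3 rose and 6 fell in back and 7 of 14 rose and 1 fell in tail, with Serpinh1 higher in both (1.57 ± 0.22 and 1.26 ± 0.18). Klf5 (−2.72 ± 0.36 and −3.85 ± 0.14) and Tfap2c (−1.90 ± 0.21 and −2.96 ± 0.20) fell in back and tail bulge.

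**Figure D3:**
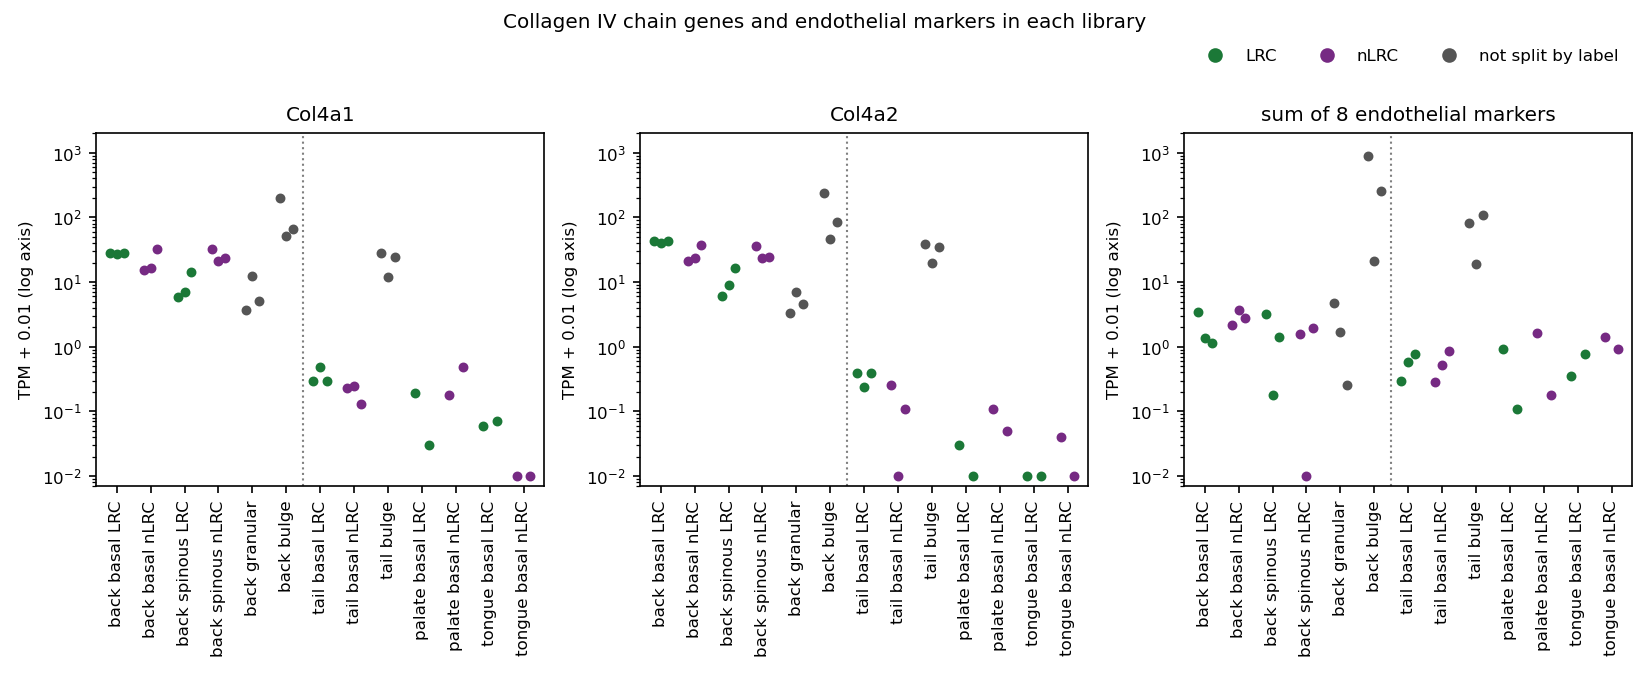
TPM plus 0.01 on a log axis (vertical) of Col4a1, of Col4a2 and of the sum of 8 endothelial markers in each library by group (horizontal); points are libraries. Both collagen genes are at 5.82 TPM or more for Col4a1 in back basal and spinous libraries and under 1 TPM in tail, palate and tongue basal libraries, while the endothelial sum is low in all of these and high in both bulge groups.

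The series sets slow-cycling against fast-cycling cells, and in the basal layer of back skin no member differed between LRC and nLRC by the test, against 0.235% of genes that did (39 of 16574). An unadjusted p under 0.05 was found for 802 of the 16574 genes, Lamb1 among them. That is fewer than this threshold passes on average where no gene differs. Lama3 was at 189, 214 and 190 TPM in LRC and at 136, 174 and 164 TPM in nLRC libraries, all LRC above all nLRC (0.28 ± 0.32, adjusted p = 1). Lamb1 was at 4.68, 6.11 and 2.73 TPM in LRC and at 6.54, 12.6 and 7.94 TPM in nLRC libraries, all LRC below all nLRC (−1.13 ± 0.40, adjusted p = 0.52). Libraries of the groups did not overlap in CPM for 14.9% of all genes tested, so these orders are no result by themselves. The other log2 differences lay between −0.04 (Lama5) and 0.52 (Col4a2), with SEs of 0.31 to 0.58.

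In the spinous layer of back skin Lamb1, Col4a1 and Col4a2 were lower in LRC than in nLRC, 3 of 9 members against 8.63% of genes tested that were lower, and no member was higher, against 6.88% (members' median −0.26, all genes −0.01). Lamb1 had 2.18, 3.22 and 2.33 TPM in LRC and 20.5, 27.1 and 16.0 TPM in nLRC libraries, a 9.31-fold difference without overlap (−3.22 ± 0.43, adjusted p = 1.4e-04). Col4a1 had 5.82, 6.94 and 14.4 TPM against 32.6, 21.1 and 23.2 TPM (−1.61 ± 0.47, adjusted p = 0.0284), and Col4a2 6.05, 9.14 and 16.3 TPM against 35.8, 23.3 and 24.7 TPM (−1.39 ± 0.37, adjusted p = 0.0163). Both were apart in every library, with LRC library 3 nearest to the nLRC libraries. Lama3 and Col17a1 stood the other way, with all LRC libraries above all nLRC libraries, but did not pass the test (0.60 ± 0.32 and 0.61 ± 0.31, adjusted p = 0.245 and 0.206). Non-overlap in CPM, which held for these 5 members, held for 42.3% of genes tested. With back bulge library 2 left out of the fit, both of these passed (adjusted p = 0.0396 and 0.0467), and with the replicate number as a block Lamb3 passed as lower (−0.66, adjusted p = 0.0459). The Col4a1 call was lost without spinous LRC 1 or 2 or any nLRC library (adjusted p up to 0.127), and that of Col4a2 without spinous LRC 1 or 2 (up to 0.0851).

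Markers of sebocytes, which fill the sebaceous gland with lipid, differed in the same direction as these 3 genes between spinous LRC and nLRC. The sum of 8 sebocyte markers was 421, 405 and 290 TPM in spinous LRC and 4360, 7350 and 3070 TPM in spinous nLRC libraries, led by Scd1, and none of the 8 was at 0 reads. In the basal layer the sums were 172 to 217 TPM in LRC and 289 to 626 TPM in nLRC, where Lamb1 had a log2 difference of −1.13, Col4a1 of 0.30 and Col4a2 of 0.52, none past the test. Granular libraries had sums of 545 to 1020 TPM, with mean levels of 5.44 TPM for Lamb1, 7.06 for Col4a1 and 5.0 for Col4a2. These means were 9.02, 21.6 and 27.7 TPM in basal nLRC. Basal keratinocyte markers, led by Krt5, summed to 15800 to 20900 TPM in spinous LRC and 25900 to 33700 TPM in spinous nLRC. Spinous markers, led by Krt10, summed to 24500 to 41100 TPM in spinous LRC and 4400 to 10000 TPM in spinous nLRC. Melanocyte markers summed to 9.72 to 11.6 TPM in spinous LRC and 24.4 to 42.5 TPM in spinous nLRC, and Schwann cell markers, led by Egr2, to 20.5 to 101 and 128 to 195 TPM. The endothelial sum was at most 3.16 TPM in either spinous group. The part of sebocytes, of the other cell types or of the share of spinous cells in these differences was not tested. Of the other basement membrane genes, 8 of 14 linkers and proteoglycans were lower in spinous LRC, against 8.63% of genes tested. Among them were Npnt (−2.12 ± 0.31), Pxdn (−3.83 ± 0.69) and Agrn (−1.43 ± 0.29). Lama4 (−6.20 ± 0.64) and the receptors Itgb1 (−1.50 ± 0.26), Dag1 (−1.22 ± 0.24) and Itga3 (−1.07 ± 0.31) were lower too. Lama4 was also the 1 gene of all lists that fell in back basal LRC (−4.40 ± 0.62).

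**Figure D4:**
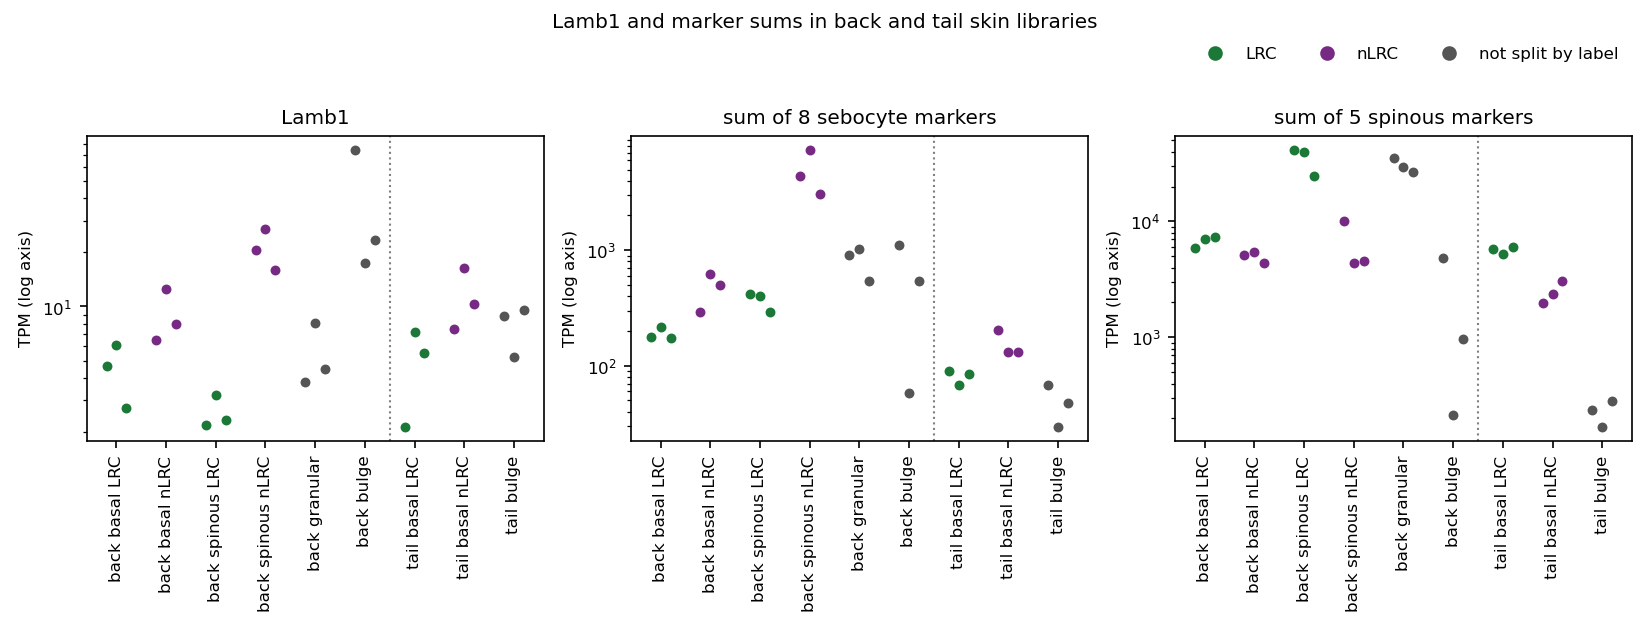
TPM on a log axis (vertical) of Lamb1, of the sum of 8 sebocyte markers and of the sum of 5 spinous markers in each library of back and tail skin by group (horizontal); points are libraries. Lamb1 and the sebocyte sum are both higher in spinous nLRC than in spinous LRC libraries, and the spinous sum is lower there.

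No member's LRC effect differed between spinous and basal layer by the test, against 0.392% of genes. Lamb1 (−2.09 ± 0.56) and Col4a2 (−1.91 ± 0.51) were nearest, both at an adjusted p of 0.113, and Lamb1 passed with the replicate number as a block (−2.03, adjusted p = 0.0168). 

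In the basal layer of tail skin, palate and tongue no member tested differed between LRC and nLRC by edgeR either. Of all genes tested 4.60% did in tail, and 0 of 14923 in palate (19 by DESeq2 and 1082 at an unadjusted p under 0.05). In tongue 0.00670% did (1 of 14923, with 101 by DESeq2 and 696 at an unadjusted p under 0.05). Col4a2 did not pass the low-count filter in palate and tongue, which left 8 members tested there. By DESeq2 4 members passed in tail. The 696 genes of tongue are fewer than that threshold passes on average where no gene differs. In tail Lamb1 was at 2.13, 7.19 and 5.54 TPM in LRC and at 7.52, 16.3 and 10.4 TPM in nLRC libraries, with all LRC lower in CPM (−1.49 ± 0.38, adjusted p = 0.0547; 0.015 with the replicate number as a block). Without tail LRC 2 its adjusted p was 0.0179. Non-overlap in CPM held for 27.8% of genes tested in tail, for Lama5, Lamb1, Lamb3, Col4a2 and Dst among the members. Lamb3 (−0.46 ± 0.15, adjusted p = 0.112) and Dst (−0.41 ± 0.17, adjusted p = 0.198) were lower in CPM, while their TPM overlapped between the groups.

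Col4a2 in tail rested on few reads: 16, 82 and 28 in LRC and 11, 5 and 6 in nLRC libraries (2.20 ± 0.65, adjusted p = 0.0911; 0.0163 without LRC 1). Its TPM of 0.38, 0.23 and 0.38 against 0.25, 0 and 0.10 did not follow the reads, since the library with most reads had the lowest TPM of the LRC group. In palate Lamb1 had 4.81 and 5.60 TPM in LRC and 8.41 and 4.88 TPM in nLRC libraries (−0.62 ± 0.22, adjusted p = 0.64). In tongue it had 5.57 and 3.67 TPM in LRC and 3.67 and 4.36 TPM in nLRC libraries (0.37 ± 0.22, adjusted p = 1). In palate non-overlap in CPM held for 33.3% of genes tested, Lama5 and Lamb1 among the members, and in tongue for 38.5%, Lama3, Lamb1, Lamb3, Col7a1 and Col17a1 among the members. With 2 libraries a group, the SEs of the other members tested but Col4a1 lay between 0.19 and 0.35 in both oral tissues. No member's LRC effect differed between tail and back basal layer (2.71% of genes did), with Col17a1 (−0.58 ± 0.24), Lamb3 (−0.59 ± 0.22) and Col7a1 (−0.50 ± 0.20) at adjusted p of 0.295, 0.223 and 0.276.

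**Figure D5:**
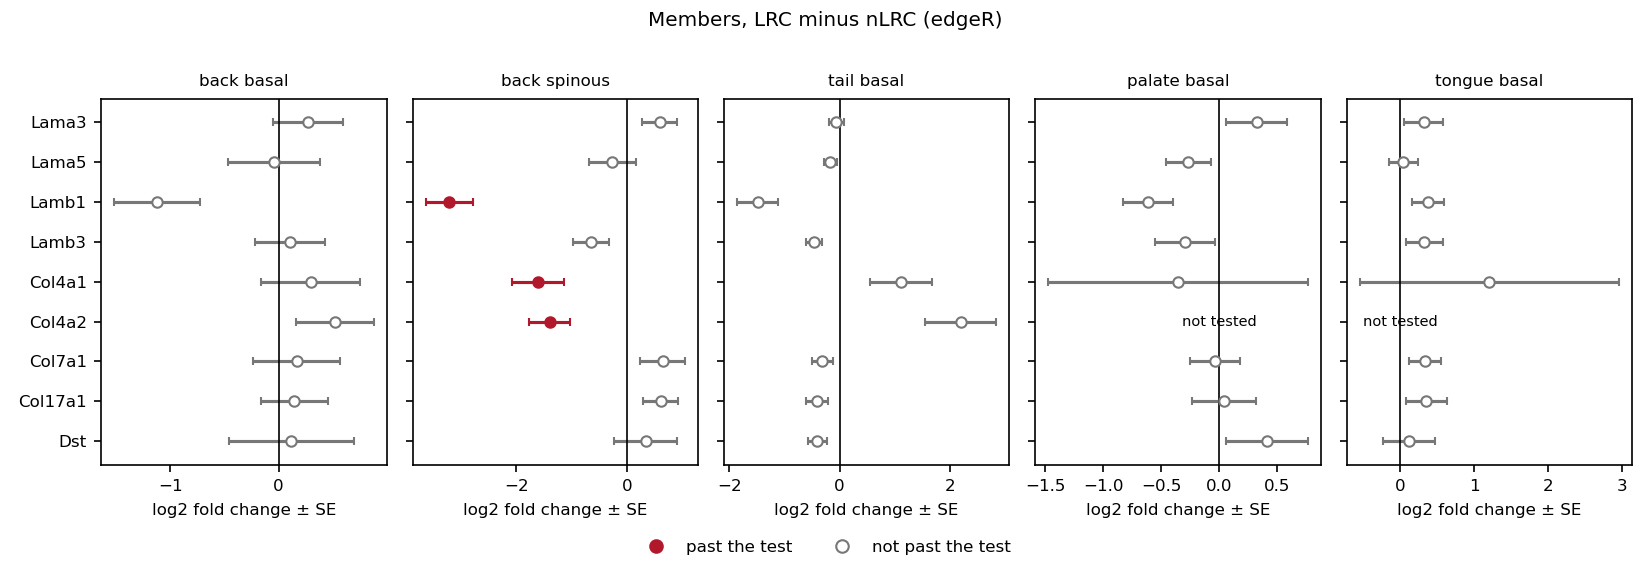
Log2 fold change (horizontal axis) with its SE, LRC minus nLRC, of each gene (vertical axis) in the 5 pairs of groups. Filled red points are past the test. Col4a2 was not tested in palate and tongue. Lamb1 lies left of 0 in back basal, back spinous, tail and palate cells and right of 0 in tongue, and passes the test only in the spinous layer, where Col4a1 and Col4a2 pass too.

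Among tail skin, palate and tongue, whose tables share a format, Col7a1 was lower in both oral basal layers than in tail, with LRC and nLRC averaged. Col7a1 had 45.8, 55.9 and 80.1 TPM as lowest, median and highest value in the 6 tail libraries, 22.0, 23.3, 25.3 and 13.2 TPM in palate and 30.2, 16.4, 18.03 and 21.2 TPM in tongue. Every oral library was below every tail library (palate −1.11 ± 0.13, adjusted p = 4.6e-05; tongue −1.38 ± 0.14, adjusted p = 6.4e-06). Palate against tail had 2 of 9 members lower, Col7a1 and Lama5, and 1 higher, Dst, against 12.2% of 16614 genes lower and 13.9% higher (members' median −0.04, all genes −0.03). Tongue against tail had Col7a1, Col4a1 and Col4a2 lower and Dst higher, 3 and 1 of 9, against 13.7% and 13.6% (members' median −0.14, all genes −0.05). These comparisons share the tail libraries, and the time on doxycycline (2 weeks for tail, 10 days for palate and tongue) cannot be told apart from the tissue.

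Lama5 had 26.2, 34.9 and 37.5 TPM in tail, 16.9, 14.9, 21.4 and 11.02 TPM in palate and 32.0, 21.9, 24.0 and 33.2 TPM in tongue. Palate was lower than tail (−0.67 ± 0.10, adjusted p = 2.4e-04) and lower than tongue, which exceeded it by 0.52 ± 0.14 (adjusted p = 0.0433), a call lost without any 1 of 6 libraries (adjusted p up to 0.261). Between tongue and palate 1 member rose and 1 fell of 8 tested, against 4.91% and 4.71% of genes; the other was Lamb1, lower in tongue (−0.68 ± 0.15, adjusted p = 0.024; lost without palate LRC 2 or any tongue library, adjusted p up to 0.147). Dst had 86.8, 126 and 164 TPM in tail, 176, 216, 191 and 68.1 TPM in palate and 204, 137, 136 and 217 TPM in tongue. It was higher in CPM in palate (0.72 ± 0.17, adjusted p = 0.00695) and tongue (0.59 ± 0.17, adjusted p = 0.0196). On log2(TPM + 1) with limma neither passed (0.28 and 0.47, adjusted p = 0.429 and 0.233). The 68.1 TPM of Dst was that of palate nLRC 2, the library with the low scaling factor. The palate call was lost without palate LRC 2 (adjusted p = 0.0526) and the tongue call without tongue LRC 1 or nLRC 2 (up to 0.108).

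The collagen IV genes were near 0 in all these basal layers. Col4a1 had 14, 54 and 19 reads in tail LRC, 11, 14 and 7 in tail nLRC, 42 and 4 in palate LRC, 11 and 25 in palate nLRC, and 2, 3, 2 and 0 in tongue libraries. Col4a2 had 33, 0, 11 and 2 reads in palate and 1, 0, 2 and 1 in tongue libraries. With at most 3 reads of either gene per tongue library, below or at the 3 reads used as a floor, the fitted differences from tail (adjusted p = 0.0134 for both) depend on the counts added in the fit, and no fold is given. In back basal cells the same genes had 476 to 958 and 861 to 1469 reads per library, at 15.4 to 32.6 and 21.4 to 43.2 TPM. Lamb3, Lama3 and Col17a1 did not pass the edgeR test between these 3 tissues in any pair. Lama3 was lower in palate than in tail by DESeq2 (−0.33, adjusted p = 0.0324) and by limma on log2(TPM + 1) (−0.71, adjusted p = 0.0233), against −0.31 by edgeR (adjusted p = 0.113). Palate nLRC 2, of low scaling factor, had 23.3 TPM of Lama3, and the other palate libraries had 45.2 to 55.2 TPM. The part of that library in these differences was not tested.

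Of the other genes between palate and tail, the collagen genes Col18a1 (−1.36 ± 0.16), Col4a6 (−0.99 ± 0.17) and Col4a5 (−0.72 ± 0.17) fell, as did Lamc1 (−0.60 ± 0.12). Of the lists, 3 of 6 collagens and 2 of 6 laminin chains tested fell, and none rose. In tongue against tail 4 of 6 collagens fell, Col18a1 (−2.01 ± 0.17), Col4a6 (−1.19 ± 0.17) and Col4a5 (−0.82 ± 0.17) among them, and 3 of 6 laminin chains, such as Lamc1 (−0.75 ± 0.12), while Lamb2 rose (0.79 ± 0.15). Hemidesmosome partners and receptors rose in 2 and fell in 1 of 8 cases in palate, where 13.9% of genes were higher and 12.2% lower, and in 1 and 2 cases in tongue, where 13.6% were higher and 13.7% lower. Among them were Bcam, a laminin receptor, higher in both (0.49 ± 0.14 and 0.65 ± 0.14) and Dag1 lower in both (−0.47 ± 0.11 and −0.55 ± 0.11). Of linkers and proteoglycans, Npnt was higher in palate than in tail (1.82 ± 0.21) and lower in tongue than in palate (−2.90 ± 0.16).

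The members were also compared in how their levels varied over the 13 groups, as Pearson correlations of log2(TPM + 1) of group means, each set of tables centred on its own mean. The groups share tissues, and the labels do not tell which libraries share animals, so the coefficients are descriptions. Col4a1 and Col4a2 were most alike (0.993), followed by Lama3 and Col17a1 (0.947), Col7a1 and Col17a1 (0.905) and Lama5 and Lamb3 (0.901). Lamb1 stood apart from the hemidesmosome genes, with −0.217 to Col17a1 and −0.417 to Dst, the lowest of all pairs. Among 9247 genes, the one most like Lamb3 was Plod1 (0.99), followed by Slc12a4 (0.985) and the integrin gene Itga3 (0.98). Col7a1 was most like Col4a6 (0.942) and P4ha1 (0.933), Lama5 like Ltbp4 (0.946), Cav1 (0.944) and Arhgef10 (0.936), and Lamb1 like Capn2 (0.93), Ndufc2 (0.921) and Nedd9 (0.906). Next after each other, both collagen IV genes were most like Cd151 (0.965 and 0.969) and Pfkm (0.956 and 0.966). Lama3 was most like Col17a1, Gramd2 (0.94) and Col4a6 (0.936), Col17a1 like Lama3, Gramd2 (0.941) and Shisa5 (0.938), and Dst like Ggta1 (0.931), Msantd2 (0.929) and Cgrrf1 (0.928).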

How the data were processed

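RNA of sorted cells was made into libraries with a stranded total RNA kit for low input, per the labels' protocols. For each library the authors deposited gene read counts, TPM and RPKM. No aligner, counter or annotation is given in the sources used here, and the build is mm10 per the submitters' processing notes. The deposited RPKM values were loaded but support no result. The back skin tables and the others list different genes. Counts were tested with edgeR 4.0.16 in R 4.3.3 (TMM scaling, filterByExpr with a minimum count of 10 and a total of 15, quasi-likelihood test, Benjamini-Hochberg over all genes, threshold 0.05) in fits over all back, all tail, all oral, or joined libraries, for 15 comparisons. The SE of a log2 fold change is its size divided by the root of the F statistic. The fits were tested on simulated data. Alternatives were DESeq2 1.42.0, limma 3.58.1 on log2(TPM + 1), other scaling, no filter, fewer groups, a replicate block and leaving out each library.

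The members and lists were chosen with earlier results of these data known. The text names all 9 members and, per list and comparison, up to 3 genes past the test with the smallest p. Some values that this rule would name are not reported here. Replicate numbers come from the labels. Same-numbered libraries deviated together in back basal (r = 0.363 to 0.484), back spinous (0.237 to 0.401), tail basal (0.392 to 0.585), spinous and basal (0.379 to 0.57), granular and spinous (0.388 to 0.498) and tail bulge and basal (0.101 to 0.525) libraries, so these numbers were taken to pair them. The main tests compared group means and did not use this pairing. It entered only as the replicate block among the alternatives. Where a value without counts of its own rests on few reads, 3 reads served as the floor.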

Additional observations from a re-analysis of the deposited data

Results flagged for a closer look

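The bulge effect (bulge minus basal layer) differed between tail and back by the interaction test for 5 genes, with tail minus back values of −2.64 for Lamb1, 1.32 for Lamb3, 3.37 for Col4a1, 4.62 for Col4a2 and 1.31 for Col17a1 on the log2 scale.

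For 3 genes, every LRC library lay in CPM on one side of every nLRC library in one tissue or layer and on the other side in another. These differences between tissues were not tested. Non-overlap in CPM held for 14.9% of genes tested in back basal, 42.3% in back spinous, 27.8% in tail, 33.3% in palate and 38.5% in tongue cells. In TPM the groups overlapped for Lamb1 in palate and tongue, for Lamb3 in tail and tongue, and for Col4a2 in tail. Lamb1 had LRC minus nLRC values of −1.13 in back basal, −3.22 in back spinous, −1.49 in tail and −0.62 in palate cells and of 0.37 in tongue. Lamb3 had −0.46 in tail and 0.33 in tongue. Col4a2 had −1.39 in back spinous and 2.20 in tail basal cells, the latter from 5 to 82 reads per library.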

How the results depend on the processing

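Log2 fold changes of members past the test kept their sign in each alternative run. Of the others 56 changed sign, 17 of them with limma on log2(TPM + 1), 1 with the replicate block and 38 where a library was left out, and 0 of the 56 were past the test in either fit. In all 2546 kept sign and side of the threshold, 109 lost and 47 gained the test. The cause of the changes below was not tested. On log2(TPM + 1) with limma the count of members past the test was 1 in place of 3 for spinous LRC, 3 in place of 6 for spinous against basal, 2 in place of 4 for granular against spinous, 3 in place of 5 for back bulge, 0 in place of 2 for tongue against palate, 1 in place of 4 for tongue against tail and 3 in place of 5 for the difference of bulge effects. DESeq2 called 4 in place of 0 for tail LRC and 2 in place of 0 for the LRC effect of spinous against basal layer. Without the low-count filter the counts were 3 in place of 0 for tail LRC, 4 in place of 2 for tongue against palate, 2 in place of 0 for the LRC effect of spinous against basal layer and 1 in place of 0 for that of tail against back.

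With the replicate block the counts were 1 in place of 0 for tail LRC, 1 in place of 0 for the LRC effect of spinous against basal layer and 1 in place of 2 for tongue against palate, where Lama5 was lost (adjusted p = 0.0692). Where the numbers were not taken to pair the libraries, the block brought in Lama3 in back bulge (−0.73, adjusted p = 0.0306) and in the difference of bulge effects (1.05, adjusted p = 0.0221), and Lamb1 between tongue and tail (−0.63, adjusted p = 0.00714). Same-numbered libraries correlated at 0.315, 0.044 and 0.183 for back bulge and basal layer, 0.281 in palate and 0.035 in tongue. Besides these and the calls given beside the results, the block changed no call of a member.

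Leaving out each library in turn gave 1 to 5 members for spinous LRC, 0 to 1 for tail LRC, 4 to 6 for spinous against basal, 1 to 5 for granular against spinous, 3 to 6 for back bulge, 4 to 5 for tail bulge, 0 to 3 for tongue against palate, 2 to 4 for palate against tail, 1 to 5 for tongue against tail, 0 to 2 for the LRC effect of spinous against basal layer and 4 to 6 for the difference of bulge effects.

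Over all genes, counts moved by more than 1.5 times. With DESeq2 they were 227 in place of 39 for back basal LRC, 1460 in place of 690 for tail LRC, 1267 in place of 664 for granular against spinous, and 590 in place of 65 and 783 in place of 463 for the LRC effects of spinous against basal and tail against back. With limma they were 0 for back basal LRC, 1065 in place of 2571 for spinous LRC, 446 for tail LRC, 599 in place of 1504 for spinous against basal, 197 for granular against spinous, 1928 in place of 4353 for back bulge, 588 in place of 1436 for tongue against palate, 0 for the LRC effect of spinous against basal layer and 840 in place of 1681 for the bulge effects. Without the filter they were 180 for back basal LRC, 2128 for tail LRC, 269 for palate LRC, 236 for tongue LRC, 2453 for tongue against palate, 172 and 1182 for the LRC effects. With the block they were 95, 2055, 6 and 29 for LRC in back basal, tail, palate and tongue cells, 1197 for granular against spinous, 386 and 1107 for the LRC effects. In fits of only the groups compared they were 64 for back basal LRC, 3895 for spinous LRC, 6 for tongue LRC, 2736 for spinous against basal, 1555 for granular against spinous and 2769 for back bulge. Leaving out single libraries moved these counts too, at the extremes to 2 without back basal nLRC 2 and 128 without back bulge 2 in place of 39 for LRC in back basal, 1306 without back spinous nLRC 2 and 4476 without back bulge 2 in place of 2571 for LRC in spinous and 342 without tail basal nLRC 1 in place of 690 for LRC in tail. They were 1601 without palate basal nLRC 1 in place of 0 for LRC in palate, 0 without tongue basal LRC 1 and 45 without palate basal nLRC 2 in place of 1 for LRC in tongue and 2455 without back bulge 2 in place of 1504 for spinous against basal. Counts were 288 without back granular 2 and 1590 without back bulge 2 in place of 664 for granular against spinous, 700 without tongue basal nLRC 2 and 3406 without palate basal nLRC 1 in place of 1436 for tongue against palate and 2996 without tongue basal nLRC 2 in place of 4528 for tongue against tail. They were 10 without back basal nLRC 1 and 866 without back bulge 2 in place of 65 for the LRC effect of spinous against basal layer and 1076 without tail bulge 2 and 3036 without back bulge 1 in place of 1681 for the difference of bulge effects.

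The values that changed sign with limma on log2(TPM + 1) stand here with those of edgeR. For LRC in back basal they were Lama5 0.055 in place of −0.040. For LRC in tail they were Lama3 0.20 in place of −0.061, Lama5 0.18 in place of −0.17 and Col7a1 0.067 in place of −0.31. For LRC in palate they were Lama5 0.040 in place of −0.27, Lamb3 0.063 in place of −0.29 and Col7a1 0.29 in place of −0.038. For LRC in tongue they were Lama5 −0.089 in place of 0.045 and Dst −0.036 in place of 0.12. For the LRC effect of tail against back they were Lama5 0.12 in place of −0.15, Col4a1 −0.25 in place of 0.79 and Col4a2 −0.36 in place of 1.65. For the difference of bulge effects they were Lama5 0.058 in place of −0.44. For tongue against palate they were Col7a1 0.035 in place of −0.28, Col17a1 0.26 in place of −0.038 and Dst 0.18 in place of −0.14. For palate against tail they were Lamb3 −0.27 in place of 0.17. With the replicate block Lamb1 between palate and tail was 0.030 in place of −0.042.

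Values that changed sign when a library was left out had these ranges over the libraries left out. For LRC in back basal they were Dst −0.10 to 0.40 and Lama5 −0.14 to 0.065. For LRC in spinous they were Dst −0.027 to 0.74. For LRC in palate they were Col17a1 −0.010 to 0.075, Col4a1 −2.56 to 1.12, Col7a1 −0.26 to 0.14 and Lamb3 −0.57 to 0.060. For LRC in tongue they were Dst −0.058 to 0.33 and Lama5 −0.055 to 0.16. For the LRC effect of spinous against basal layer they were Dst −0.15 to 0.62 and Lama5 −0.50 to 0.003. For the LRC effect of tail against back they were Col4a1 −0.006 to 1.17. For the difference of bulge effects they were Lama5 −0.76 to 0.28. For back bulge they were Dst −1.21 to 0.28. For tail bulge they were Col7a1 −0.26 to 0.072. For tongue against palate they were Dst −0.27 to 0.031 and Lamb3 −0.053 to 0.26. For palate against tail they were Col17a1 −0.088 to 0.030, Col4a1 −0.86 to 0.62, Lamb1 −0.22 to 0.16 and Lamb3 −0.004 to 0.32. For tongue against tail they were Col17a1 −0.12 to 0.002 and Lama3 −0.13 to 0.067.

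Depth limits Col4a1 and Col4a2 in tail, palate and tongue basal cells, at 0 to 82 reads per library.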
